A study of Daphnia magna with 3 samples.

Results

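Among the rarely read transcripts of the water flea Daphnia magna, 30 had most of their signal in the antenna. They were selected from the deposited read counts by 3 criteria: 10 to 99 reads over all 21 libraries, at least 1 read in 2 or more of the 3 antenna libraries, and an antenna share of at least 80%. The antenna share is the mean antenna level divided by the sum of the mean levels of the 7 body parts, and a level is the reads of a transcript per 1000000 reads of its library (CPM). The 30 were 0.45% of the 6663 transcripts with 10 to 99 reads and came from a table of 33957 transcripts. The criteria allowed up to 300 transcripts and this number was not reached. Since the antenna values chose them, their excess in antenna is given as a description and was not tested.

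RNA of antenna, head, carapace, carcass, hemocytes, eggs and gut was sequenced as cDNA on a nanopore instrument, in a study compiled as an atlas of expression by body part. All animals had the genotype IL-M1-8 and none received a treatment beyond standard culture in ADaM medium at 20 °C, with 20 mL per adult and daily green algae at 100000 cells per mL. The 3 replicates, numbered 3, 4 and 7, were each 1 pool with 1 barcode per body part. The labels name neither the antenna pair dissected, nor the number of animals behind a pool, nor whether pools came from separate cultures, so the spread between replicates may be technical.

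Daphnia carries a pair of short first antennae, which bear chemosensory bristles, and a pair of large branched second antennae, which beat to swim. The second antennae hold strong striated muscle inside a cuticle that is renewed at each moult, together with epidermis, nerves and mechanosensory bristles. A transcript that is rare over a whole animal can come from a small group of such cells, or be made at a low level by many. In bulk RNA, fewer cells of a type and less RNA per cell cannot be told apart.

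The table names gene models and pairs them with no gene name, and 0 of its identifiers matched the RefSeq gene table, so no function is given for any of the 30 and no marker of antennal tissue could be looked up. An identifier holds the gene predictor, the contig and a gene number. In gene-4.69 the number before the point is 4, and models of a contig that share it are called a stretch here. This number was read as the place of a model along its contig, after a common naming habit of gene predictors. The files do not define it, so every statement on stretches, adjacent stretches and neighbours rests on this reading. Models of a stretch may overlap and share reads, so single models are reported as uncertain.

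Depth differed strongly between libraries. The antenna libraries held 148692 (replicate 3), 58544 (replicate 4) and 1105094 reads (replicate 7), together 1312330 or 30.2% of the 4339322 reads of the table. Replicate 7 supplied 84.2% of all antenna reads. The 18 libraries of the other body parts held 3026992 reads, and the gut was the shallowest with 62741 over its 3 libraries. A single read was worth 0.905 CPM in the antenna of replicate 7, 17.1 CPM in that of replicate 4 and 240 CPM in the gut of replicate 4.

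The 30 transcripts had 1074 reads in all, 1048 in antenna and 26 in the other 6 body parts. The reads outside antenna were 2.42% of the total (95% exact binomial interval 1.59 to 3.53, counting error only), and 8.26% without replicate 7. In antenna they numbered 85 in replicate 3, 26 in replicate 4 and 937 in replicate 7, so replicate 7 held 89.4% of them. Scaled to depth, the summed level was 572 CPM in replicate 3 (exact binomial interval 457 to 707), 444 CPM in replicate 4 (290 to 651) and 848 CPM in replicate 7 (795 to 904). The mean was 621 ± 206 CPM (SD, n = 3). The same reads chose the transcripts, so these levels and the percentage outside antenna are a description. The libraries were not tested against each other.

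**Figure D1:**
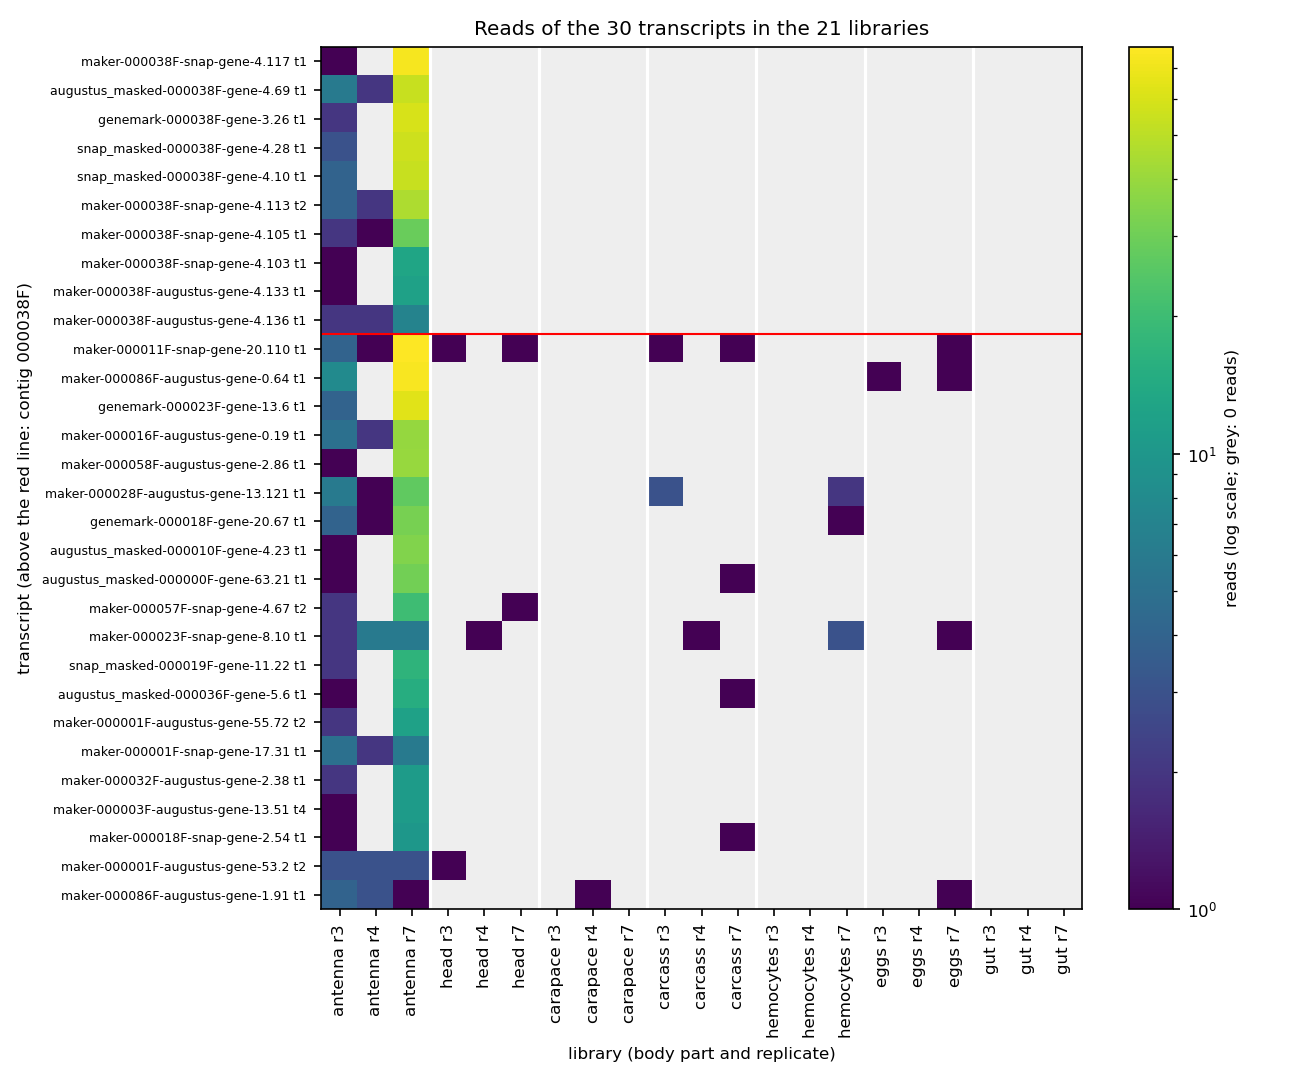
Reads of each of the 30 transcripts (rows) in each of the 21 libraries (columns, antenna at the left, r3, r4 and r7 for the replicates), on a log colour scale with 0 reads in grey. Identifiers are shortened and t is the transcript number. The antenna column of replicate 7 is filled for 30 of 30, that of replicate 4 for 12, and the 10 rows above the red line, on contig 000038F, have 0 reads outside antenna.

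Single transcripts rested on few reads. Their totals ran from 10 to 88 with a median of 32.5: 12 transcripts had under 20 reads, 9 had 20 to 49 and 9 had 50 or more. All 30 had a read in the antenna of replicate 3, where the counts ran from 1 to 8, and all 30 had one in replicate 7, where they ran from 1 to 78. In replicate 4, the shallowest antenna library, 12 of the 30 had a read and 18 had none. For 9 transcripts the place in the set depended on a single read in the second antenna library that held one.

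The transcript with most reads was maker-falcon_000011F-snap-gene-20.110-mRNA-1, with 4 (replicate 3), 1 (replicate 4) and 78 (replicate 7) antenna reads, against 5 in all other libraries. Its antenna level was 38.2 ± 28.5 CPM (SD, n = 3). Next came maker-falcon_000086F-augustus-gene-0.64-mRNA-1, with 8, 0 and 75 antenna reads in replicates 3, 4 and 7, against 2 reads elsewhere, both in eggs. It averaged 40.6 ± 35.8 CPM in antenna (SD, n = 3). Both had their highest level in replicate 7, and the antenna library of replicate 4 was the lowest for both. The SD of the 2 transcripts was close to the mean, so neither level is known well.

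Replicate 7 was also the highest for most of the set. The highest of the 3 antenna levels was in replicate 7 for 22 of the 30, in replicate 4 for 5 and in replicate 3 for 3. Mean antenna levels ran from 5.26 to 41.1 CPM with a median of 23.1 CPM. Divided by transcript length, they ran from 1.58 to 102 CPM per kilobase with a median of 12.5, a 64.3-fold range. By this measure maker-falcon_000086F-augustus-gene-0.64-mRNA-1, at 399 bases the shortest of the 30, was the highest at 102 CPM per kilobase. The range per kilobase thus mixes levels with lengths of 399 to 4417 bases. Whether nanopore reads grew in number with transcript length here was not tested.

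**Figure D2:**
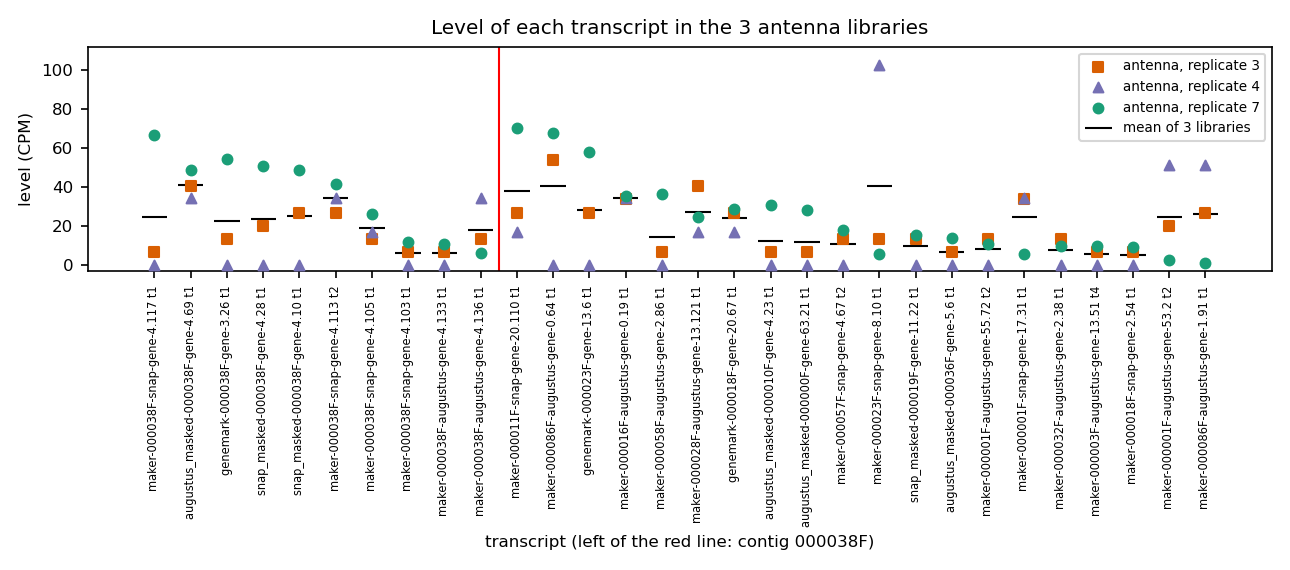
Level in CPM of each of the 30 transcripts in the antenna of replicate 3 (squares), replicate 4 (triangles) and replicate 7 (circles), with the mean of the 3 libraries as a black line. Transcripts left of the red line lie on contig 000038F. The circle is the highest mark for 22 transcripts and the triangle for 5, and 18 triangles lie at 0.

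The other 8 transcripts were highest in a shallower library. In replicates 3 and 4 together, 3 transcripts tied for the most antenna reads, at 8. Of these, maker-falcon_000023F-snap-gene-8.10-mRNA-1 had 2, 6 and 6 antenna reads in replicates 3, 4 and 7, at levels of 13.4, 103 and 5.43 CPM. Its level in replicate 4 was the highest of any of the 30 in any antenna library, and its mean of 40.5 ± 53.9 CPM (SD, n = 3) rests mainly on those 6 reads. The other two were maker-falcon_000086F-augustus-gene-0.64-mRNA-1, described above, and augustus_masked-falcon_000038F-processed-gene-4.69-mRNA-1.

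The last of these had no read elsewhere. Of the 30 transcripts, 19 had 0 reads outside antenna, and 6 of the 19 were read in 3 of 3 antenna libraries. Among the 6, augustus_masked-falcon_000038F-processed-gene-4.69-mRNA-1 had most reads, with 6 in the antenna of replicate 3, 2 in replicate 4 and 54 in replicate 7. Its levels of 40.4, 34.2 and 48.9 CPM averaged 41.1 ± 7.38 CPM (SD, n = 3). The second, maker-falcon_000038F-snap-gene-4.113-mRNA-2, had 4, 2 and 46 antenna reads in replicates 3, 4 and 7, and averaged 34.2 ± 7.36 CPM (SD, n = 3). In both, the 3 levels lay close together, but that of replicate 4 rests on 2 reads, at 17.1 CPM per read. The closeness is therefore known poorly. The most even of the 6, maker-falcon_000016F-augustus-gene-0.19-mRNA-1, was picked out after its values were seen. It had 5, 2 and 39 antenna reads in replicates 3, 4 and 7, which gave 34.4 ± 0.85 CPM (SD, n = 3). With 2 reads in replicate 4, the small SD does not make this level precise.

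The other 11 transcripts had reads outside antenna, 6 of them a single read. The most were in maker-falcon_000023F-snap-gene-8.10-mRNA-1, with 6, of which 3 were in the hemocytes of replicate 7. Next, with 5 each, were maker-falcon_000028F-augustus-gene-13.121-mRNA-1, in carcass and hemocytes, and the transcript with most reads in all. Antenna shares ran from 81.3% to 100%, and 24 of the 30 had at least 90%. Among all 6663 transcripts with 10 to 99 reads the median antenna share was 9.18%, and antenna was the highest body part for 678 or 10.2%.

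At the threshold of 80%, the transcripts just inside were maker-falcon_000028F-augustus-gene-13.121-mRNA-1 at 81.3% and maker-falcon_000011F-snap-gene-20.110-mRNA-1 at 83.2%. Just outside were maker-falcon_000028F-augustus-gene-13.107-mRNA-2 at 78.9%, with 62 of its 69 reads in antenna, and maker-falcon_000000F-augustus-gene-41.14-mRNA-4 at 77.5%, with 8 of 10. These were among 20 transcripts that met the other criteria and had shares of 70 to 80%. Of the 44 rarely read transcripts with a share of at least 80%, 14 were left out because they were read in a single antenna library. For 14 of these 14 that library was replicate 7, the deepest, and the largest had 75 reads.

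The 26 reads outside antenna were spread over 5 body parts. By pooled reads, the summed level of the 30 transcripts was 13.9 CPM in hemocytes (6 reads), 10.5 in carcass (9), 9.16 in head (5), 7.56 in eggs (5) and 2.14 in carapace (1). The exact binomial intervals of these levels overlap, for example 5.09 to 30.2 CPM in hemocytes and 0.0541 to 11.9 CPM in carapace, so no order among these body parts is read from them. The 6 hemocyte reads were all in replicate 7. By replicate, the reads outside antenna came to 7 in replicate 3 (9 CPM), 3 in replicate 4 (3.23 CPM) and 16 in replicate 7 (12.1 CPM). By these levels replicate 7 was the highest both in antenna and outside it, and its part in the result was not tested.

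The gut had 0 reads of the 30 transcripts, which at its 62741 reads allows a summed level of up to 47.8 CPM (a limit of 3 reads). The mean summed level in antenna was 13.0-fold this limit, which is a description, since the criteria set both the antenna level and the 0. For single transcripts the gut was too shallow: the pooled antenna level of 4 of the 30 was above 47.8 CPM. The limit was 5.495 CPM in head, 6.41 in carapace, 3.50 in carcass, 6.93 in hemocytes and 4.54 in eggs. Pooled antenna levels of 6.10 to 63.3 CPM, with a median of 24.4, were above it for 30 transcripts in head, 29 in carapace, 30 in carcass, 28 in hemocytes and 30 in eggs. Not all of these were unread there: 26 had 0 reads in head, 29 in carapace, 24 in carcass, 25 in hemocytes and 26 in eggs. The criteria bore on these zeros too, so they are a description. At this depth, absence from the gut was therefore not detectable for 26 of the 30, and for the other 4 the 0 was set by the criteria.

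**Figure D3:**
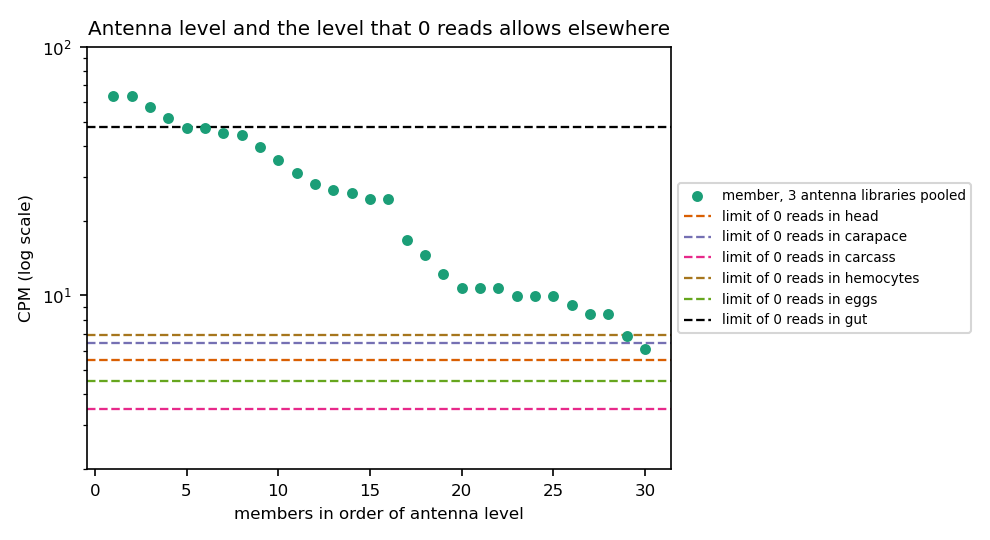
Antenna level of each of the 30 transcripts over the pooled antenna libraries, in CPM on a log scale and in falling order (points), with the level that 0 reads allows in each other body part (dashed lines, 3 reads over its pooled total). The gut line at 47.8 CPM has 4 points above it, and the other lines lie between 3.50 and 6.93 CPM, below 28 or more of the points.

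The selection did not compare the other 6 body parts with each other, but the antenna share capped their summed level. Under this cap a read weighed more in a shallow library: 240 CPM in the gut of replicate 4, against 2.40 CPM in the carcass of replicate 7. The criteria thus bore on how many reads outside antenna the set could hold, and on where they could lie. Tests among these body parts describe the set within those bounds. In edgeR's joint quasi-likelihood test over the 18 libraries outside antenna, 1207 of the 4047 transcripts that passed the filter on low counts differed, a background of 29.8%. None of the 30 passed that filter, and 0 passed it with the antenna libraries included. Without a filter, edgeR called 12.2% of 18640 transcripts and 0 of the 11 of the set that had a read outside antenna. None of the 11 had an unadjusted p under 0.05 (edgeR, no filter), and the smallest, 0.265, was that of maker-falcon_000028F-augustus-gene-13.121-mRNA-1 (adjusted p = 0.702).

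Other tools run without the filter gave other answers. DESeq2 assigned no adjusted p to any of the 11, and 0 of them had an unadjusted p under 0.05. Limma voom called 11 of the 11, beside 70.4% of all 18640 transcripts. With 1 to 6 reads in 18 libraries, and tools that disagree, no difference among the other body parts was established for the set, and none was excluded by these tests.

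A check that the choice did not fix was made by selecting on 2 replicates and reading the antenna share in the replicate left out. Chosen without replicate 3, 11 transcripts (8 of them among the 30) had 73.2% of their summed CPM in the antenna of that replicate, against 10.2% for the other 6694 transcripts in the same range of reads. Antenna was the highest body part for 10 of the 11, against 7.52% of the others with a read. Chosen without replicate 4, 32 transcripts (25 among the 30) had 71.8% in its antenna, against 11.1% for 6659 others. Only 14 of the 32 had any read in replicate 4. Antenna was the highest body part for 9 of these (64.3%, against 12.4% of the others with a read), every one that had an antenna read. The reads numbered 13 in antenna, 8 in carapace, 6 in carcass and 2 in hemocytes, so antenna held 44.8% of them without scaling to depth. The share of 71.8% thus leaned on the low depth of that antenna library. A read was worth 17.1 CPM there, against 4.20 in carapace and 5.65 in carcass. Chosen without replicate 7, 4 transcripts (2 among the 30) had 65.6% in its antenna, against 12.5% for 6389 others. Antenna was the highest for 3 of the 4, against 7.62% of the others with a read. Of the 445 antenna reads behind this share, 260 and 152 were of the 2 transcripts outside the 30. Each had more reads in replicate 7 alone than the criteria allow over all libraries. The 2 among the 30 had 27 and 6 antenna reads, and the one with 6 was highest in hemocytes, on 3 reads. The share of 65.6% therefore says little about the 30 in replicate 7.

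In each replicate left out, the antenna share was thus below the 80% used to choose and well above that of the other transcripts in the range. Each value comes from 1 library per body part, so it carries no test. Outside antenna, the chosen transcripts had most reads in carcass in replicate 3 (7), carapace in replicate 4 (8) and hemocytes in replicate 7 (28). Scaled to depth, hemocytes were highest in replicate 3 (66.7 CPM, carcass 26.7) and in replicate 7 (103 CPM). In replicate 4, carcass and carapace were close (33.9 and 33.6 CPM). Many of these reads were of chosen transcripts outside the selected set. Such transcripts held all 8 carapace reads, and 20 and 3 of the 28 hemocyte reads. Of the 7 carcass reads, 3 and 1 were of selected transcripts.

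**Figure D4:**
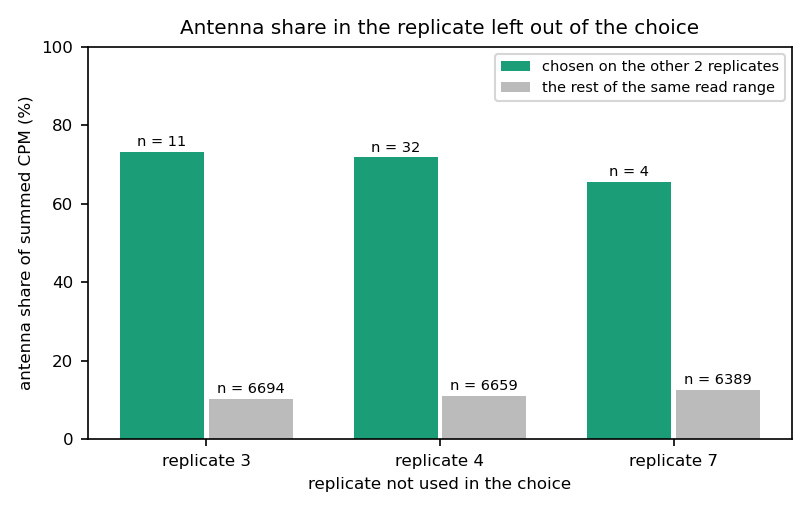
Antenna share of the summed CPM, in percent, in the replicate that the choice did not use, for transcripts chosen on the other replicates (green) and for the rest of the same range of reads (grey), with the number of transcripts above each bar. Green bars stand at 73.2%, 71.8% and 65.6%, and grey bars at 10.2%, 11.1% and 12.5%.

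The genome position of the models was not used by the selection. The 30 transcripts lay on 16 contigs and 22 stretches, of 572 contigs and 1703 stretches in the table. Of the 30, 10 (33.3%) were on contig 000038F, which holds 0.710% of all models and 83 or 1.25% of the transcripts with 10 to 99 reads. Of these 10, 9 were on its stretch 4, which has 35 models, and 1 was on stretch 3. No other stretch held more than 1 of the 30. By the same criteria 60 transcripts were confined to eggs and 26 to head, with at most 2 on a stretch in either set. On a single contig there were up to 6 of the egg transcripts and up to 4 of the head transcripts. The contig was singled out after its count was seen, so these shares are a description with no test.

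The 10 transcripts of contig 000038F had 438 reads, and 0 of these were outside antenna. The criteria used these reads, so the 0 is a description and sets no bound on expression outside antenna. Their summed antenna level was 175 CPM in replicate 3, 120 in replicate 4 and 367 in replicate 7, a mean of 220 ± 130 CPM (SD, n = 3). The other 20 had 636 reads, 4.09% of them outside antenna, and averaged 401 ± 78.5 CPM in antenna (SD, n = 3). All 26 outside reads belonged to the other 20, of which 11 had such reads and 9 had none.

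The same contig could be followed in the replicates left out of the choice. Without replicate 3, 3 of the 11 transcripts chosen were on it, with 12 reads in the antenna of replicate 3 and 0 outside. Without replicate 4, 9 of the 32 were on it, with 5 antenna reads and 0 outside in replicate 4. Without replicate 7, 0 of the 4 chosen were on it, so the deepest library gave no such check.

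Models of stretch 4 outside the set were mixed. Of these 26 models, 10 had no read, 6 had reads in antenna alone, 4 had reads outside antenna alone and 6 had both. The 6 with antenna reads alone had 65 reads, all 65 in replicate 7, and with reads in a single antenna library they did not meet the criteria. They made up 37.5% of the 16 unselected models with a read, against 5.23% of the models with a read on all other stretches. The largest was augustus_masked-falcon_000038F-processed-gene-4.81-mRNA-1, with 0, 0 and 34 antenna reads in replicates 3, 4 and 7. The most read unselected model, maker-falcon_000038F-augustus-gene-4.132-mRNA-3, had 181 reads and an antenna share of 55.9%.

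Over the whole stretch, 617 of 782 reads (78.9%) were from antenna, and over its unselected models 241 of 406 (59.4%). These reads are not scaled to depth, and antenna held 30.2% of all reads of the table. The 78.9% includes the 9 transcripts that the criteria chose. Of the 241 reads, 132 were of maker-falcon_000038F-augustus-gene-4.132-mRNA-3. Counting models with at least 3 reads and an antenna share of at least 80%, the stretch had 14, the next had 5, and 1562 of the 1703 stretches had none. Of the adjacent stretches, stretch 3 had 4 such models and stretch 5 had 0. The median antenna share of models with at least 3 reads was 11.4% on stretch 3 and 6.23% on stretch 5. On stretch 4 the unselected models had a median of 46.0%. Whether the 9 models stand for separate genes or for fragments of fewer genes was not tested, since positions finer than the stretch are not used here.

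**Figure D5:**
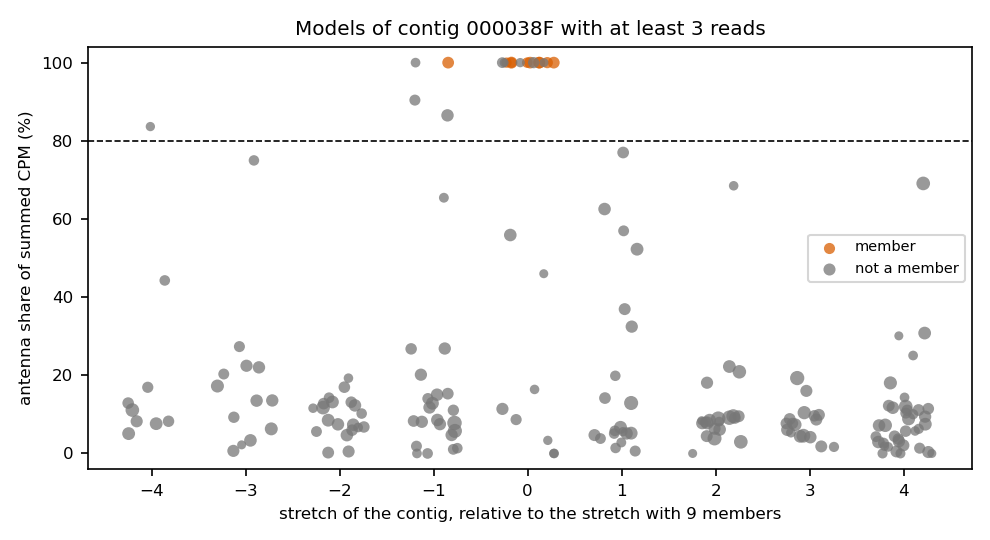
Antenna share of the summed CPM, in percent, of each model of contig 000038F with at least 3 reads (points, larger with more reads), by stretch relative to stretch 4. Orange points are the selected transcripts, grey points are other models and the dashed line marks 80%. The 9 orange points at position 0 lie at 100%, where 5 further grey points also lie above the line. Position -1 has 4 points above it, 1 of them orange, position -4 has 1, and the other positions have 0.

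Neighbours of the 30 were also compared over all their stretches. The 216 unselected models with at least 10 reads on the 22 stretches had a median antenna share of 11.4%, against 9.26% of 11013 models elsewhere. Antenna was the highest body part for 41 of the 216 (19.0%), against 9.58% elsewhere. With stretch 4 counted among the models elsewhere, its selected transcripts included, antenna was the highest for 38 of 211 (18.01%), against 9.68% of 11027.

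In length the 30 transcripts ran from 399 to 4417 bases with a median of 1307, against a median of 1889 for all transcripts with 10 to 99 reads. The median of those confined to eggs was 1086 bases and of those confined to head 2763. Lengths were multiples of 3 for 53.3% of the 30, against 50.6% of the transcripts with 10 to 99 reads. The maker pipeline named 20 of the 30 (66.7%), against 76.6% in the same range of reads. The others came from the predictors augustus (4), snap (3) and genemark (3). The identifier ended in transcript 1 for 25 of the 30 (83.3%), against 78.9%.

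By the same criteria, antenna had more confined transcripts than head (26), carcass (5), hemocytes (3), gut (3) or carapace (0), and fewer than eggs (60). Pooled depth was 1312330 reads for antenna, 545916 for head, 856093 for carcass, 432884 for hemocytes, 62741 for gut, 468291 for carapace and 661067 for eggs. The counts were not tested against each other, and the part of depth in them was not tested.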

How the data were processed

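RNA of 7 body parts was measured in 3 barcoded pools, which gave 21 libraries. The deposited table holds whole read counts per transcript and library, the transcript length in bases (other) and RPKM. SAMtools and DESeq2 are the tools in the submitters' processing notes; the aligner, genome build and annotation were not given in the sources used here. The RPKM deposited by the authors divide each count by the transcript length and by the reads of the whole replicate, so they scale with library depth and served only as an alternative. CPM were computed from the counts and library totals. No column of per-sample values was left out.

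The members, lists and tests were chosen with earlier results of these data known. Gene lists fixed by function work on gene names and could not be applied. Named transcripts follow a rule of at most 2 identifiers per description: most reads, most reads with 0 outside antenna and 3 of 3 antenna libraries, closest to the threshold, most reads in replicates 3 and 4, and most reads outside antenna. An added identifier is named where 3 tied; the most even transcript and the unselected models of stretch 4 were chosen after their values were seen.

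The 18 libraries outside antenna were tested with edgeR 4.0.16 (R 4.3.3; TMM, filterByExpr with a minimum count of 10, quasi-likelihood F test over 5 coefficients, Benjamini-Hochberg adjustment, threshold 0.05), checked on simulated counts. DESeq2 1.42.0 and limma 3.58.1 (voom) were alternatives. Intervals are exact at 95%, a count of 0 allows 3 reads, and both cover counting error only, since reads without molecular identifiers are not independent molecules. The replicate number marks a shared pool, per the labels, and a fit with it as a block was an alternative.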

Additional observations from a re-analysis of the deposited data

How the results depend on the processing

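Of 122 alternative values, 88 kept their direction and stayed close to the reported value, judged by a fixed ratio for counts and by the spread or interval for others. The 1207 transcripts that differed among the other 6 body parts became 2268 with no filter, 2188 with DESeq2, 1299 with the replicate as a block, and 312 to 1673 with a pool or library left out (312 without replicate 4). With 2 runs added after seeing the data, both with no filter, they became 2274 (DESeq2) and 13117 (limma voom). None of the 30 was tested in any filtered fit, so the fit with the replicate block says nothing about them, and it was not run without the filter. The cause of the difference between voom and the other tools was not tested.

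The 30 selected transcripts became 50 at a share of 70%, 19 at 100%, 57 with 5 to 99 reads, 18 with 20 to 99, 12 with reads in 3 of 3 antenna libraries and 60 with the deposited RPKM (29 shared with the 30). With a pool or library left out they numbered 2 to 37: 11 without replicate 3, 4 without replicate 7, 7 without the antenna of replicate 3 and 2 without that of replicate 7. Their antenna level was 898 CPM with TMM factors. Their reads outside antenna were 1.94% to 8.26% with a replicate left out, 8.26% without replicate 7.

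The antenna share in replicate 3, left out of the choice, was 49.6% at a threshold of 70% and 100% at 90%. In replicate 4 it was 92.4% at 90%, 44.8% with pooled reads and 44.1% without gut. In replicate 7 it was 40.3% at 70%, 27.7% at 90% (1 transcript) and 88.7% with pooled reads. Against the deepest single library, 19 transcripts were above the limit of head, 18 of carapace and 0 of gut. With a replicate left out, the counts above the limit were 18 to 25 for carapace, 14 to 26 for hemocytes and 0 to 4 for gut. The neighbours' median antenna share was 9.60% with adjacent stretches added. The median length of the 30 minus that of transcripts with 10 to 99 reads was -582 bases, and minus that of all transcripts 380 bases. The set rests on few reads and mostly on 1 antenna library.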
